A study of Mus musculus with 9 samples.

Results

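The DNAJ proteins, also called HSP40 or J proteins, are the cochaperones of the HSP70 chaperones, and their mRNAs were followed in mouse macrophages exposed to organotins. The members were the genes whose symbol is Dnaja, Dnajb or Dnajc followed by a number, measured by a probe set that names a single gene, and each was read at its brightest probe set over the 9 arrays. This gave 44 members of the 18193 genes tested, with 104 probe sets of 34945. They comprised 4 genes of class A, 13 of class B and 27 of class C. Dnajc19, a subunit of the mitochondrial import motor, was left out because its 3 probe sets also name a pseudogene.

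Bone marrow derived macrophages of C57BL6 mice aged 6 to 12 weeks were primed on day 6 in vitro with 33 ng/mL LPS, a bacterial component that triggers inflammatory gene expression. The priming lasted 3 h, and the cells then received sterile saline, TMT (trimethyltin, as the hydroxide) at 1.25 µM or TET (triethyltin, as the bromide) at 10 µM for 6 h. All 3 groups therefore carried the LPS priming, and no unprimed cells were measured in the samples used here. Each group had 3 arrays, described as biological replicates, and no source used here says that they came from separate mice, so the p-values cover the spread between these arrays, which may be technical. The organotins differed in dose as well as in structure (methyl against ethyl groups on tin), so the effect of compound and that of dose cannot be told apart.

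A J protein carries a J domain, which makes an HSP70 protein hydrolyse ATP and close on its client. Class A members also have a glycine-rich stretch and a zinc-finger region, class B members lack the zinc finger, and class C members share little beyond the J domain and serve single tasks in many compartments. In macrophages, as in other cells, cytosolic members work on new and stress-damaged proteins. Members inside the endoplasmic reticulum (ER) bring BiP, the HSP70 of that compartment, to proteins being folded, degraded or moved across its membrane.

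Values are deposited log2 signals, differences are log2 fold changes, and a gene was called changed at an adjusted p under 0.05 in limma with Benjamini-Hochberg adjustment over all 18193 genes. Precision is limited by the number of arrays, and exact permutation of 3 arrays against 3 could not go below p = 0.1. The 8 macrophage markers all lay above the median gene brightness of 6.82. Their summed signal, on the log2 scale, was 16.26 to 16.31 in saline, 16.13 to 16.37 under TMT and 15.97 to 16.12 under TET. None of the 11 measured markers of T cells, B cells, erythroid, dendritic or NK cells reached the median brightness. Of the fibroblast markers, 1 of 3 did, and their summed log2 signal was 8.20 to 8.47 in saline, 8.32 to 8.74 under TMT and 8.74 to 9.23 under TET. Of the neutrophil markers 1 of 3 did, and their summed log2 signal was 8.28 to 8.36, 8.30 to 8.38 and 7.91 to 8.05 in the same order. The part of any such cells in the differences below was not tested, and in these bulk samples fewer cells and less RNA per cell cannot be told apart. The TET arrays had a narrower range of signals, with an interquartile range of 3.45 to 3.55 against 3.83 to 3.88 in saline and 3.78 to 3.86 under TMT. The part of that narrower range in the TET results was not tested directly, and the TET calls that other scalings ended or added are given together.

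The promoters of the members that the results turn on show which of the searched letters lie near their start sites. The 250 bases upstream of the annotated start are given 5′ to 3′ on the gene's strand from RefSeq (GRCm38.p6), with the matched letters in capitals. For Dnajb11 the next 20 bases are added, because its match lies within them, just after the annotated start. Dnajb4 (chr3:152193846-152194095, minus strand) holds a pair of heat shock units. Dnajc3 (chr14:118937682-118937931, plus strand) holds an ER stress response element, Dnajb11 (chr16:22857595-22857864, plus strand) holds the second form of that element, and Dnajb9 (chr12:44210069-44210318, minus strand) holds a CCAAT box. Dnajb4 is shown because it moved in opposite directions under the organotins, and the other 3 because they encode ER members that moved apart under TET.
Dnajb4: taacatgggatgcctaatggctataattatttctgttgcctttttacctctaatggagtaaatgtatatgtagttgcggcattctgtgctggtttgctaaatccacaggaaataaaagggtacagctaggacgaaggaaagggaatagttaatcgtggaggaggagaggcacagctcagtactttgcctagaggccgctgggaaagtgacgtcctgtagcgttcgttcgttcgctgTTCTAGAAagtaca
Dnajc3: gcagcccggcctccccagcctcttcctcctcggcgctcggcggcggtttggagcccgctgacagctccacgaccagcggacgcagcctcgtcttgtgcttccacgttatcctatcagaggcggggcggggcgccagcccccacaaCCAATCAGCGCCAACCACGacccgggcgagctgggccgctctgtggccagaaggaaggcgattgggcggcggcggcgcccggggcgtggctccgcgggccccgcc
Dnajb11: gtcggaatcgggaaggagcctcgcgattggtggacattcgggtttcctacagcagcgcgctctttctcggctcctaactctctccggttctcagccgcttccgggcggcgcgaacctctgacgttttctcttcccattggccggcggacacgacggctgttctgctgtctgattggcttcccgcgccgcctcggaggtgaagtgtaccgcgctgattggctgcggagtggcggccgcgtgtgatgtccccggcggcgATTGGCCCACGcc
Dnajb9: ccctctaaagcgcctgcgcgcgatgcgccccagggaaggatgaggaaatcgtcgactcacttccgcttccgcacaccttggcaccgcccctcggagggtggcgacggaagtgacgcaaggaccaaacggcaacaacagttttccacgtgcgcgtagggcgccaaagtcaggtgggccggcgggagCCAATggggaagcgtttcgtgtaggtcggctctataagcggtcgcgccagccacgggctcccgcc
The ER stress response element was searched as CCAAT followed by CCACG after 9 other bases, and its second form as ATTGG followed by CCACG after 1 base, on both strands, from 250 bases before to 50 after each start. They were found in 0.119% and 0.0365% of the 32851 annotated promoters, and in 1 member each of the 36 members with a promoter entry. The pair of heat shock units (GAANNTTC or TTCNNGAA) was found in 15.1% of all promoters and in 7 of the 36 members, namely Dnaja1, Dnaja4, Dnajb4, Dnajb6, Dnajc10, Dnajc27 and Dnajc5g. The form with 3 such units at the same spacing, which contains the pair, was found in 0.603% of promoters and in 1 member, Dnajb6. The CCAAT box, whose letters also begin the first ER element, was found in 37.4% of promoters and in 14 members. It was the only searched element found at Dnajb9. A composite site of CHOP and ATF4 (TGATGNAA) was found in 3.97% of promoters and in 0 members, and an ATF6 site (TGACGTGG) in 0.676% and in 1 member, Dnajc25. The percentages count promoter entries, while a member counted once if any of its entries matched, so the shares are on unlike units. These matches describe the letters only.

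TMT against saline asked which mRNAs of primed macrophages differ after this organotin. Dnajb1, the main heat-inducible cytosolic member, rose 1.93-fold, while Dnajb4, a cytosolic relative of the same class, fell 2.31-fold. Members were assigned to compartments by hand from background knowledge. Of the 10 ER members 6 rose and 0 fell, and of the 21 cytosolic and nuclear members 2 rose and 7 fell. In all, 20 of 44 members were called, of which 10 rose and 10 fell, against 27.8% of all genes called (14.3% risen and 13.4% fallen). Changes of at least 2-fold were called in 4 members, against 7.85% of all genes. Among genes at or above the median brightness 46.2% were called (24.1% risen and 22.1% fallen), and 17 of the 32 members in that range were, so the overall count was close to that of equally bright genes. By class, 0 rose and 2 fell of the 4 in class A, 4 rose and 2 fell of the 13 in class B, and 6 rose and 6 fell of the 27 in class C. The median difference of the members was 0.00, against 0.01 for all genes.

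TET against saline asked the same of the second organotin. Dnajb9, an ER member that brings BiP to misfolded proteins, rose 4.02-fold, and Dnajc12, a cytosolic class C member that assists aromatic amino acid hydroxylases, fell 3.52-fold. Of the 44 members 29 were called, with 11 risen and 18 fallen, against 50.8% of all genes called (27.4% risen and 23.4% fallen). Changes of at least 2-fold were called in 5 members, against 13.8% of all genes. Among bright genes 64.9% were called (23.6% risen and 41.3% fallen) and 22 of the 32 bright members, again a similar share. Class C, with 27 of the 44 members, had 15 fallen (55.6%) and 5 risen, against the 41.3% fallen among bright genes. In class A 2 rose and 1 fell, and in class B 4 rose and 2 fell. The falls that cyclic loess ended, listed below, were all of class C. Members had a median difference of −0.10, against 0.09 for all genes and −0.19 for bright genes. After cyclic loess between arrays 13 members rose and 10 fell, so the excess of falls under TET depended on the scaling. Below the median brightness 4 of 12 members rose, and among all such dim genes 2835 rose and 511 fell of 9096, so rises of dim members under TET were shared with dim genes at large.

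Of the 29 TET calls, 19 held after cyclic loess and 22 after a repeated quantile normalization. Both scalings ended the rises of Dnaja4 (0.45 and 0.51) and Dnajc5b (0.23 and 0.30). They also ended the falls of Dnajc5 (−0.05 and −0.16), Dnajc9 (−0.23 and −0.27), Dnajc10 (−0.15 and −0.26) and Dnajc21 (−0.23 and −0.31), and that of Dnajc4 (0.05 and −0.02). Cyclic loess further ended the falls of Dnajc3 (−0.16), Dnajc8 (−0.24) and Dnajc16 (−0.33). It added rises of Dnajb6 (0.24), Dnajb12 (0.51), Dnajb14 (0.48) and Dnajc17 (0.44), the last 2 of which were also called after quantile normalization (0.43 and 0.37). Centring each array on its median ended the rises of Dnaja4, Dnajc5b and Dnajc22 (0.46, 0.34 and 0.23) and added a fall of Dnajc2 (−0.36). The 5 members changed at least 2-fold under TET (Dnajb9, Dnajc12, Dnajc14, Dnajc24 and Dnajc30) kept their TET calls under these 3 scalings.

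**Figure D1:**
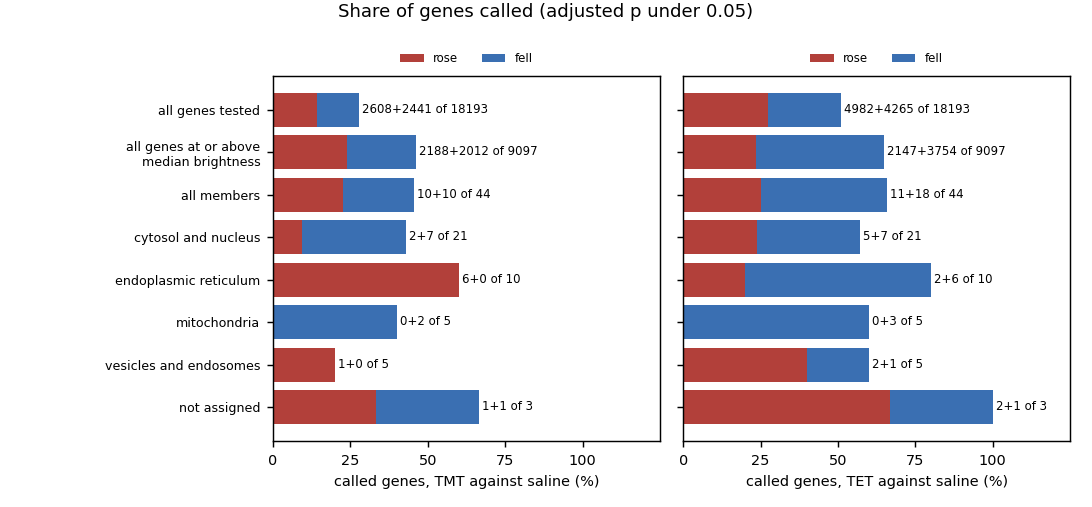
Horizontal axes show the percentage of genes called at an adjusted p under 0.05 for TMT (left) and TET (right) against saline, split into risen and fallen, with the numbers risen + fallen of all in the group printed beside each bar. ER members show 6 risen and 0 fallen under TMT, and 2 risen and 6 fallen under TET.

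Both comparisons share the saline arrays, so their results for a gene are not independent and are set side by side. Dnajb11, Dnajc5, Dnajc14 and Dnajc16 were called higher under TMT and lower under TET than saline, and Dnajb4 lower under TMT and higher under TET. Compared directly, TET lay below TMT at the former 4 and above it at Dnajb4. Not called against saline in either comparison were Dnajb3, Dnajb5, Dnajb7, Dnajb8, Dnajb12, Dnajc2, Dnajc5g, Dnajc6, Dnajc15 and Dnajc17. The direct comparison of TET with TMT called 29 of 44 members, with 11 higher and 18 lower under TET, against 51.8% of all genes (28.1% higher and 23.7% lower). At least 2-fold differences were called in 5 members, against 15.5% of all genes. Among bright genes it called 66.6%, and 24 of the 32 bright members. After cyclic loess it gave 12 higher and 12 lower.

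**Figure D2:**
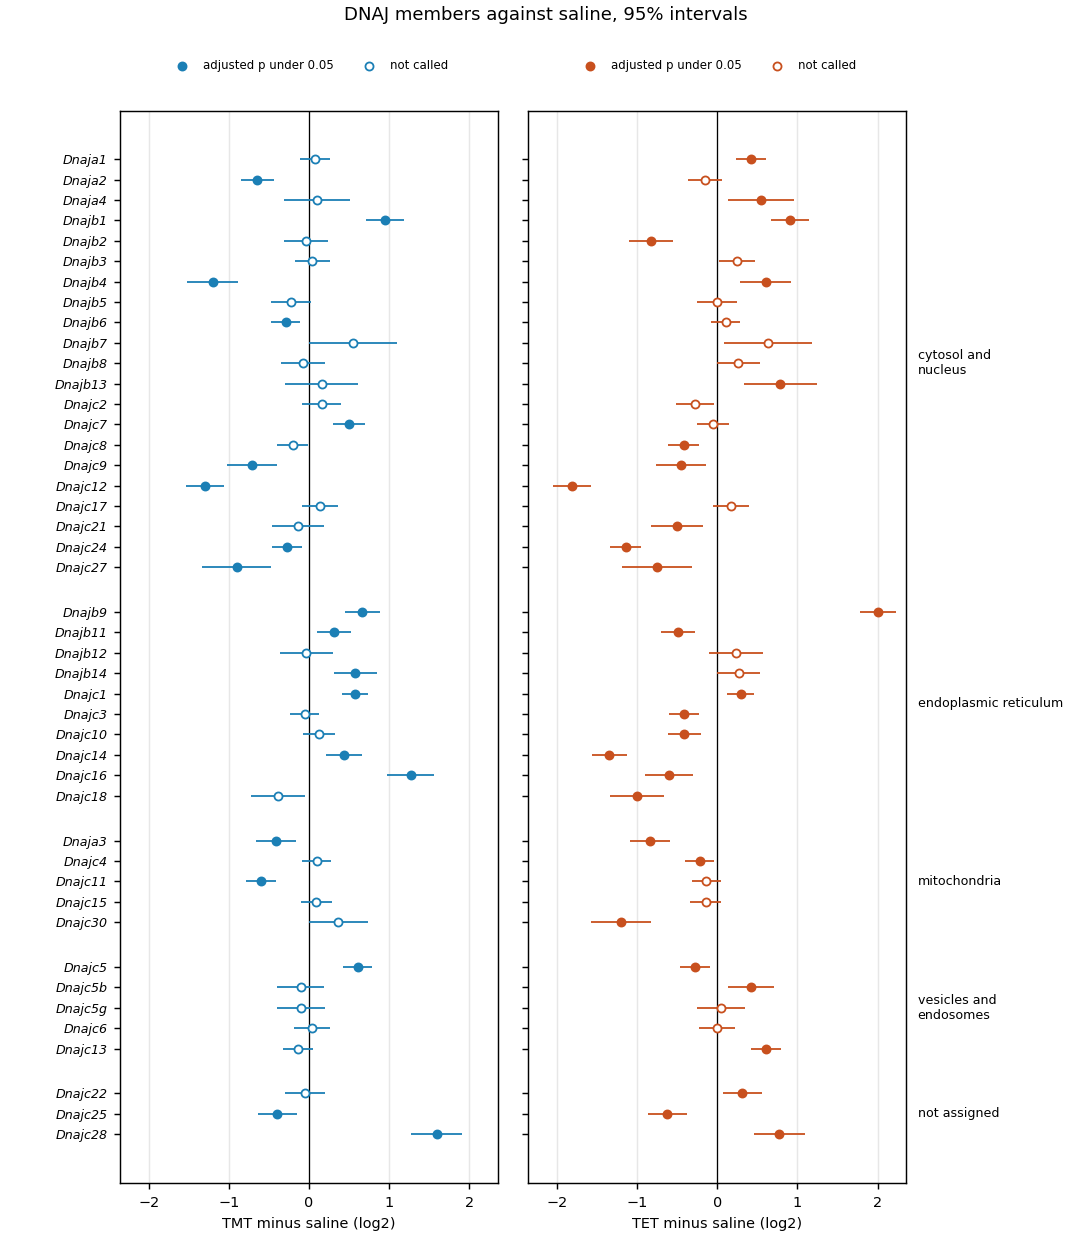
Points are log2 differences from saline of the 44 members under TMT (left) and TET (right), grouped by compartment, with 95% intervals as lines and filled points for an adjusted p under 0.05. The widest contrasts between the panels are Dnajb4, at −1.21 and 0.60, and Dnajc16, at 1.27 and −0.60.

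Among the cytosolic members, Dnajb1 was 11.47, 11.35 and 11.44 in the saline arrays, 12.41, 12.24 and 12.46 under TMT and 12.19, 12.27 and 12.52 under TET. All 6 treated arrays lay above the saline arrays, and the treated groups overlapped. Lack of overlap with saline, given here and below, was common, at 8129 of all 18193 genes under TMT and 10676 under TET. Between TET and TMT it held for 10374. Among the 9097 bright genes these numbers were 6063, 6642 and 6334, and among the 44 members 27, 37 and 30. The rise of Dnajb1 was 0.95 under TMT (SE 0.11, adjusted p = 8.3e-05 by limma) and 0.91 under TET (SE 0.11, adjusted p = 6.9e-05). At this probe set TET and TMT differed by −0.04, with a 95% interval of −0.28 to 0.20 (adjusted p = 0.75). A second, dimmer probe set gave 1.02 under TMT and 1.79 under TET, and there TET was higher than TMT by 0.77 (adjusted p = 0.00045 over all probe sets). Both probe sets of Dnajb1 rose under each organotin, and they gave different calls on TET against TMT.

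Dnajb4 was 10.86, 10.58 and 10.65 in saline, 9.48, 9.46 and 9.54 under TMT and 11.04, 11.23 and 11.63 under TET. The 3 groups did not overlap, with TMT lowest and TET highest. It fell by 1.21 under TMT (SE 0.14, adjusted p = 0.00012), rose by 0.60 under TET (1.52-fold, adjusted p = 0.0058), and TET lay 3.50-fold above TMT (1.81, adjusted p = 3.9e-06). Its second probe set showed the same order with a wider gap, at −1.22 under TMT and 2.14 under TET. The third, a dim one, rose by 1.29 under TET and was not called under TMT (0.40).

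Dnaja1 and Dnaja2 are cytosolic class A partners of the constitutive HSP70 and, with Dnaja3, had the brightest probe sets of their class in saline. Dnaja1 was 12.90 ± 0.05 (SD, n = 3) in saline and 12.98 ± 0.0016 under TMT, a difference of 0.08 with a 95% interval of −0.11 to 0.26. Under TET it rose 1.34-fold (0.42, adjusted p = 0.0020), but its other 2 probe sets were not called (0.07 and 0.01). Dnaja2 fell 1.56-fold under TMT (−0.65, SE 0.09, adjusted p = 0.00050), and all 4 of its probe sets fell, with differences from −0.65 to −1.44. Under TET its brightest probe set differed by −0.16 (adjusted p = 0.19), and 1 of the 4 fell (−1.35). The probe set used for Dnaja2 is of a kind that may bind related transcripts, as are those used for Dnajb5, Dnajc2, Dnajc6, Dnajc10 and Dnajc17.

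Dnajb6, which holds back protein aggregation and had the brightest class B probe set in saline, fell by 0.29 under TMT (adjusted p = 0.020) and differed by 0.10 under TET (adjusted p = 0.30). The TMT call did not hold without saline replicate 1, 2 or 3 or without TMT replicate 1 or 3, where the difference was −0.27 to −0.31 and the adjusted p 0.051 to 0.068. TET lay above TMT by 0.40 (adjusted p = 0.0022), and at its dimmest probe set the values were −0.66 under TMT and 0.78 under TET. Dnajb2, which delivers clients to the proteasome, did not pass under TMT (−0.03) and fell 1.78-fold under TET (−0.83, adjusted p = 0.00031). Dnajb13, a protein of cilia and sperm tails, was dim (saline mean 5.54) and rose 1.73-fold under TET (0.79, adjusted p = 0.0093). The dim members Dnajb3, Dnajb7 and Dnajb8 and the brighter Dnajb5 passed in neither comparison with saline at the probe set used. Another Dnajb5 probe set fell under TMT (−0.59, adjusted p = 0.0034 by limma over all probe sets). Its remaining probe set rose under TET (0.32, adjusted p = 0.028 by limma over all probe sets).

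**Figure D3:**
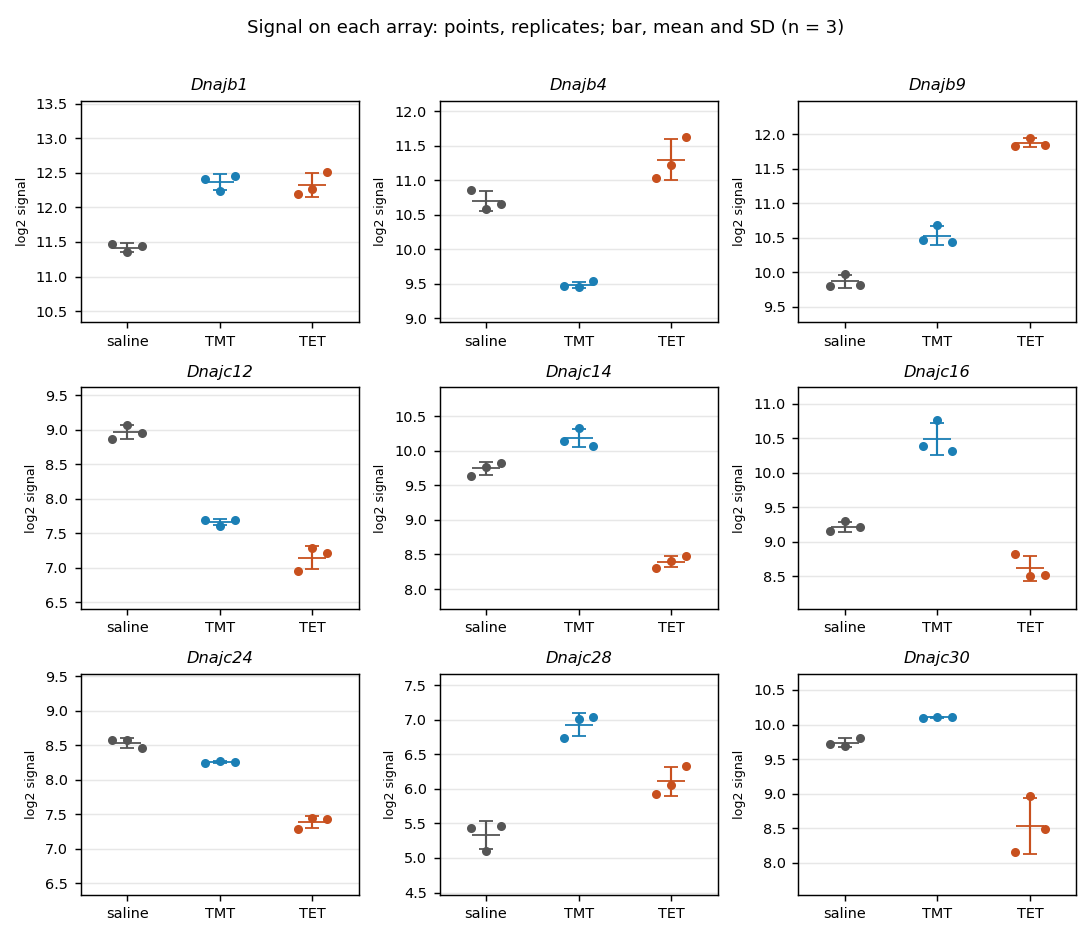
Each panel shows the log2 signal of 1 member on the 9 arrays, with points for replicates, a long bar for the group mean and whiskers for the SD (n = 3). The vertical axes all span the same number of log2 units but start at different levels. Dnajb1 is higher under both organotins, Dnajb4 is lowest under TMT and highest under TET, and Dnajc14, Dnajc16 and Dnajc30 are lowest under TET.

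Among the ER members, Dnajb9 was 9.80, 9.98 and 9.82 in saline, 10.48, 10.69 and 10.44 under TMT and 11.84, 11.95 and 11.84 under TET. The groups did not overlap and rose in that order. The difference from saline was 0.67 under TMT (1.59-fold, SE 0.10, adjusted p = 0.00053) and 2.01 under TET (SE 0.10, adjusted p = 1.6e-07), and TET lay 2.53-fold above TMT (adjusted p = 2.3e-06). It has 1 probe set.

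Dnajc16, a membrane-bound ER member, was 9.16, 9.30 and 9.21 in saline, 10.39, 10.76 and 10.32 under TMT and 8.82, 8.51 and 8.52 under TET. The groups did not overlap, with TMT above saline and TET below it. It rose 2.41-fold under TMT (1.27, SE 0.13, adjusted p = 5e-05), fell 1.52-fold under TET (−0.60, adjusted p = 0.0037), and its second probe set gave 1.05 and −0.71. After cyclic loess the TET fall was −0.33 and was not called (adjusted p = 0.10). Dnajc14, an ER membrane protein that handles receptor export, was 9.64, 9.77 and 9.82 in saline, 10.15, 10.33 and 10.07 under TMT and 8.31, 8.41 and 8.48 under TET. Here too TMT lay above and TET below saline with no overlap. It rose by 0.44 under TMT (1.35-fold, adjusted p = 0.0075) and fell 2.54-fold under TET (−1.35, SE 0.10, adjusted p = 2.5e-06), and all 3 of its probe sets fell under TET. Direct comparison put TET 3.44-fold below TMT for Dnajc14 and 3.66-fold below for Dnajc16 (adjusted p = 3.6e-07 and 1.9e-06).

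Dnajb11 and Dnajc3, whose start regions hold the ER stress response elements printed above, encode lumenal partners of BiP, and Dnajc3 also restrains the ER stress kinase PERK. Dnajb11 had a saline signal of 11.56 ± 0.03, a TMT signal of 11.87 ± 0.11 and a TET signal of 11.07 ± 0.11. It rose by 0.31 under TMT (adjusted p = 0.033), a call not held without saline replicate 1, 2 or 3 or without TMT replicate 1 or 3 (0.26 to 0.32, adjusted p 0.078 to 0.12), nor after centring (0.28, adjusted p = 0.053). It fell 1.41-fold under TET (−0.49, adjusted p = 0.0016). Dnajc3 did not pass under TMT (−0.06, 95% interval −0.24 to 0.13) and fell 1.33-fold under TET (−0.42, adjusted p = 0.0021). All 5 Dnajc3 probe sets fell under TET, with −0.42 at the brightest and −1.04 to −2.65 at the other 4. At the brightest, cyclic loess gave −0.16, which was not called (adjusted p = 0.15). As deposited, Dnajb11 and Dnajc3 were lower under TET, while Dnajb9 was higher. Dnajc10, Dnajc14, Dnajc16 and Dnajc18, which are not among the members with a match to either element, were lower as well. Any link between these elements and the direction of change was not tested.

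Of the other ER members, Dnajc1, which binds ribosomes at the ER membrane, rose 1.49-fold under TMT (0.57, adjusted p = 0.00024), where 5 of its 6 probe sets rose. Under TET its brightest probe set rose by 0.29 (adjusted p = 0.0094), and the probe sets ran from −0.78 to 1.18 with calls in both directions. Dnajb14, an ER membrane member, rose by 0.58 under TMT (adjusted p = 0.0049), and its second probe set rose by 0.65. Under TET those probe sets split, at 0.26 (adjusted p = 0.095) and −1.55, so no direction can be given. Dnajc10, a disulfide reductase that aids ER degradation, fell by 0.41 under TET (adjusted p = 0.0037), and all 3 of its probe sets fell, although at the brightest one the call was lost after cyclic loess (−0.15). Dnajc18, an ER membrane member close to the median brightness, fell by slightly less than 2-fold under TET at its brightest probe set (−0.999, adjusted p = 0.00037). Its other 2 probe sets fell by 1.87 and 0.92 on the log2 scale. Dnajb12 did not pass in either comparison, except that without TET replicate 3 it rose by 0.42 under TET.

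The ER count under TMT, 6 risen and 0 fallen, stayed between 5 and 6 risen with 0 or 1 fallen when any 1 array was left out, against 24.1% risen and 22.1% fallen among bright genes. Under TET 2 rose and 6 fell, against 23.6% risen and 41.3% fallen among bright genes, and 9 of the 10 were bright. Leaving out single arrays gave 2 or 3 risen and 6 fallen, and cyclic loess gave 4 risen and 3 fallen. Median differences of the ER members were 0.37 under TMT and −0.41 under TET, against 0.03 and −0.19 for bright genes. TET was lower than TMT at 7 of the 10 and higher at 1, Dnajb9, and after cyclic loess it was lower at 5 and higher at 2. Among bright genes TET was lower in 41.5% and higher in 25.1%.

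**Figure D4:**
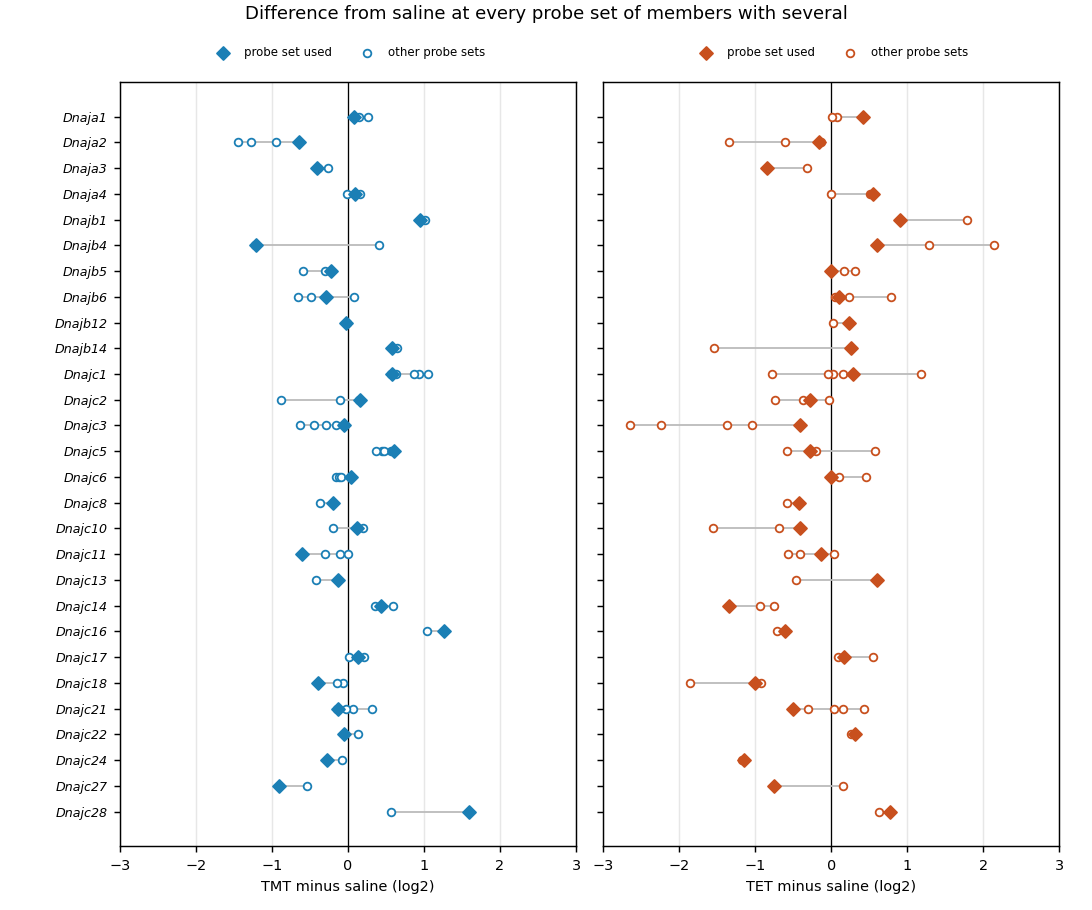
Log2 differences from saline at every probe set of the 28 members with several are shown for TMT (left) and TET (right), with filled diamonds for the brightest probe set, which was the one used, and open circles for the others. Under TET the 5 probe sets of Dnajc3 lie between −2.65 and −0.42, while those of Dnajb14 and Dnajc13 lie on both sides of 0.

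Of the 5 mitochondrial members, all bright, 0 rose and 2 fell under TMT, and 0 rose and 3 fell under TET. Among bright genes 22.1% fell under TMT and 41.3% under TET. After cyclic loess or a repeated quantile normalization 2 of the 5 fell under TET, since Dnajc4 (−0.22 as deposited) lost its call. Dnajc30, a protein linked to ATP synthase, was 9.72, 9.69 and 9.81 in saline, 10.09, 10.11 and 10.10 under TMT and 8.16, 8.96 and 8.49 under TET. The TET arrays lay below all others and were spread more widely than the rest. It fell 2.30-fold under TET (−1.20, SE 0.17, adjusted p = 0.00020). Under TMT its arrays lay above saline without overlap, but the difference of 0.37 was not called (adjusted p = 0.15), since the fit shares the spread of the TET arrays; without TET replicate 1 or 2 it was called at the same value (adjusted p = 0.044 and 0.023).

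Dnaja3, the mitochondrial class A member, fell by 0.41 under TMT (adjusted p = 0.019) and 1.79-fold under TET (−0.84, adjusted p = 0.00016). The TMT call was lost without saline replicate 1, 2 or 3 or TMT replicate 2 (−0.31 to −0.42, adjusted p 0.053 to 0.065). The other 2 Dnaja3 probe sets were not called under TMT (−0.26 and −0.40). Under TET 1 of them was not called (−0.32) and 1 fell (−0.84). Dnajc11, which associates with the cristae-organising complex, fell 1.52-fold under TMT (−0.60, adjusted p = 0.00031) and differed by −0.14 under TET (adjusted p = 0.18). Of the 4 Dnajc11 probe sets only the brightest was called under TMT, with −0.10, −0.30 and −0.006 at the others. Under TET the second brightest fell (−0.57) while the brightest was not called. The Dnajc11 probe sets also disagreed on the direct comparison, at 0.46 for the brightest and −0.46 for the second, both called. Dnajc15, a suppressor of the respiratory chain, did not pass against saline (0.09 and −0.14).

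Among cytosolic and nuclear class C members, Dnajc12 was 8.87, 9.07 and 8.95 in saline, 7.69, 7.61 and 7.69 under TMT and 6.95, 7.28 and 7.21 under TET. The 3 groups did not overlap, and TET was the lowest. It fell 2.46-fold under TMT (−1.30, SE 0.11, adjusted p = 8.7e-06) and 3.52-fold under TET (−1.81, SE 0.11, adjusted p = 4.7e-07), and TET lay below TMT by 0.51 (adjusted p = 0.0023).

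Dnajc24, which takes part in making diphthamide on elongation factor 2, was 8.57, 8.58 and 8.45 in saline, 8.24, 8.27 and 8.26 under TMT and 7.29, 7.45 and 7.43 under TET. The groups stepped down without overlap. It fell 2.21-fold under TET (−1.15, SE 0.08, adjusted p = 2.5e-06), as did its second probe set (−1.17). The fall of 0.27 under TMT (adjusted p = 0.034) was not called without saline replicate 1 or 2 or any 1 of the TMT arrays (−0.25 to −0.28, adjusted p 0.060 to 0.12).

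Dnajc9, a histone chaperone of dividing cells, fell 1.64-fold under TMT (−0.72, SE 0.14, adjusted p = 0.0033). Its fall of 0.45 under TET (adjusted p = 0.022) was lost without saline replicate 1 or 3 or TET replicate 2 (−0.36 to −0.47, adjusted p 0.051 to 0.084) and after cyclic loess or quantile normalization. Dnajc27, which pairs the J domain with a small GTPase, was dim and fell by 0.90 under TMT (adjusted p = 0.0055) and 0.75 under TET (adjusted p = 0.0089), but its second probe set gave 0.15 under TET. Dnajc7, a partner of both HSP70 and HSP90 and among the 3 brightest of class C, rose 1.41-fold under TMT (0.49, adjusted p = 0.0020) and differed by −0.06 under TET. Dnajc8, a splicing factor, did not pass under TMT (−0.20) and fell by 0.42 under TET (adjusted p = 0.0025), which cyclic loess did not call. Dnajc2, a ribosome-bound member, passed in neither comparison (0.16 and −0.28, the latter with adjusted p = 0.054), although it fell under TET without TMT replicate 2 or 3 or TET replicate 1 (−0.28 to −0.33). Of the 4 Dnajc2 probe sets 2 fell under TET (−0.37 and −0.75) and 1 fell under TMT (−0.88). Dnajc17 passed in neither at its brightest probe set (0.13 and 0.17), while another of its probe sets rose by 0.54 under TET.

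Of the 5 vesicle and endosome members, of which 2 were bright, 1 rose under TMT, and 2 rose and 1 fell under TET. Among all genes 14.3% rose under TMT, and 27.4% rose and 23.4% fell under TET. After cyclic loess or a repeated quantile normalization 1 of the 5 rose and 0 fell under TET. Dnajc5, the cysteine string protein of secretory vesicles, rose 1.52-fold under TMT (0.61, SE 0.08, adjusted p = 0.00031), where 4 of its 5 probe sets rose. Its fall of 0.28 under TET (adjusted p = 0.018) was lost without saline replicate 2 or 3 (−0.24 and −0.27, adjusted p = 0.075 and 0.060) and after cyclic loess or a repeated quantile normalization (adjusted p = 0.67 and 0.17), and another probe set rose by 0.58. Dnajc13, which acts in endosome sorting, did not pass under TMT (−0.14) and rose 1.52-fold under TET (0.60, adjusted p = 0.00022), while its second probe set fell by 0.46. Dnajc5b, a dim relative of Dnajc5, rose by 0.42 under TET (adjusted p = 0.022), a call that cyclic loess, quantile normalization and centring each ended. Neither Dnajc6, the neuronal auxilin, nor Dnajc5g passed in either comparison, and both were dim.

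Of the 3 members given no compartment, Dnajc28 was 5.44, 5.10 and 5.47 in saline, 6.74, 7.01 and 7.04 under TMT and 5.93, 6.05 and 6.34 under TET. Both exposures lay above saline and TMT lay above TET, with no overlap. The rise was 3.02-fold under TMT (1.59, SE 0.14, adjusted p = 1.7e-05) and 1.71-fold under TET (0.77, adjusted p = 0.0013), and a second probe set gave 0.56 and 0.62. Dnajc25 fell by 0.40 under TMT (adjusted p = 0.020) and 1.54-fold under TET (−0.62, adjusted p = 0.00089). Its TMT call was lost without saline replicate 2 or 3 or TMT replicate 1 or 3 (−0.34 to −0.40, adjusted p 0.061 to 0.079). The small TET calls of Dnaja4, Dnajc4, Dnajc5b, Dnajc21 and Dnajc22 (0.22 to 0.55 in size) were each lost when single arrays were left out (adjusted p 0.051 to 0.14). For Dnaja4 these were saline replicate 1 or 3 and TET replicate 1, for Dnajc5b saline replicate 1 or 2 and TET replicate 1, and for Dnajc21 saline replicate 1 and TET replicate 1 or 2. Dnajc4 lost its call without any array but saline replicate 3 and TMT replicate 2, and Dnajc22 without any saline array, TMT replicate 1 or TET replicate 1 or 3. The 5 probe sets of Dnajc21 also disagreed under TET, where 2 fell (−0.51 and −0.31) and 1 rose (0.43). Single arrays also added calls. Under TET Dnajb3 rose without TET replicate 2 (0.33), Dnajb7 without TET replicate 1 (0.90) and Dnajb14 without TMT replicate 2 or 3 (0.26). Under TMT Dnajb5 fell without TMT replicate 2 (−0.34), Dnajc18 fell without TET replicate 2 (−0.39) and Dnajb7 rose without TET replicate 3 (0.54).

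The HSP70 chaperones, which J proteins activate, were read beside the members. Of 15 measured, 4 rose and 0 fell under TMT, and 7 rose and 3 fell under TET, against 27.8% and 50.8% of all genes called and 46.2% and 64.9% of bright genes. Their medians were 0.05 and 0.30, against 0.01 and 0.09 for all genes, a background that also holds for the lists that follow. Hspa1l rose 2.71-fold under TMT (1.44, adjusted p = 8.4e-06) and 41.8-fold under TET (5.39, adjusted p = 1.6e-09) from a low saline signal of 5.02 ± 0.12. Hsph1, an HSP110 exchange factor, rose 2.10-fold and 10.3-fold, and the inducible Hspa1a rose 1.48-fold and 12.7-fold. Hspa1b was not called under TMT (−0.11) and rose 4.97-fold under TET; it is nearly identical to Hspa1a, so the signals of these genes may be mixed. Constitutive Hspa8 (0.07 and 0.10) and the ER chaperone BiP, Hspa5 (−0.09 and 0.00), passed in neither comparison, while mitochondrial Hspa9 rose 1.88-fold under TET. Hspa14, a ribosome-bound HSP70, rose by 0.39 under TMT (adjusted p = 0.047), a call lost without saline replicate 1, 2 or 3, TMT replicate 1 or 2 or TET replicate 3 (adjusted p up to 0.14).

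Exchange factors, which reset the HSP70 cycle, and other regulators gave 2 rises and 3 falls under TMT of 14 measured. Under TET they gave 6 rises and 2 falls, and the medians were 0.02 and 0.08. Bag3 differed by −0.01 under TMT and rose 7.29-fold under TET (adjusted p = 6e-08). Grpel2, a mitochondrial exchange factor, rose by 0.58 under TMT and by 1.56 under TET on the log2 scale, and St13 and Ahsa1 rose 2.04-fold and 1.96-fold under TET. The second probe set of St13 gave 0.00 under TET. Hspbp1 fell 1.47-fold under TMT. The falls of Stip1 (−0.55, adjusted p = 0.037) and Sil1 (−0.30, adjusted p = 0.040) under TMT were lost without saline replicate 1, 2 or 3 and TMT replicate 1, and also without TMT replicate 2 for Stip1 and 3 for Sil1 (adjusted p up to 0.13 and 0.15).

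**Figure D5:**
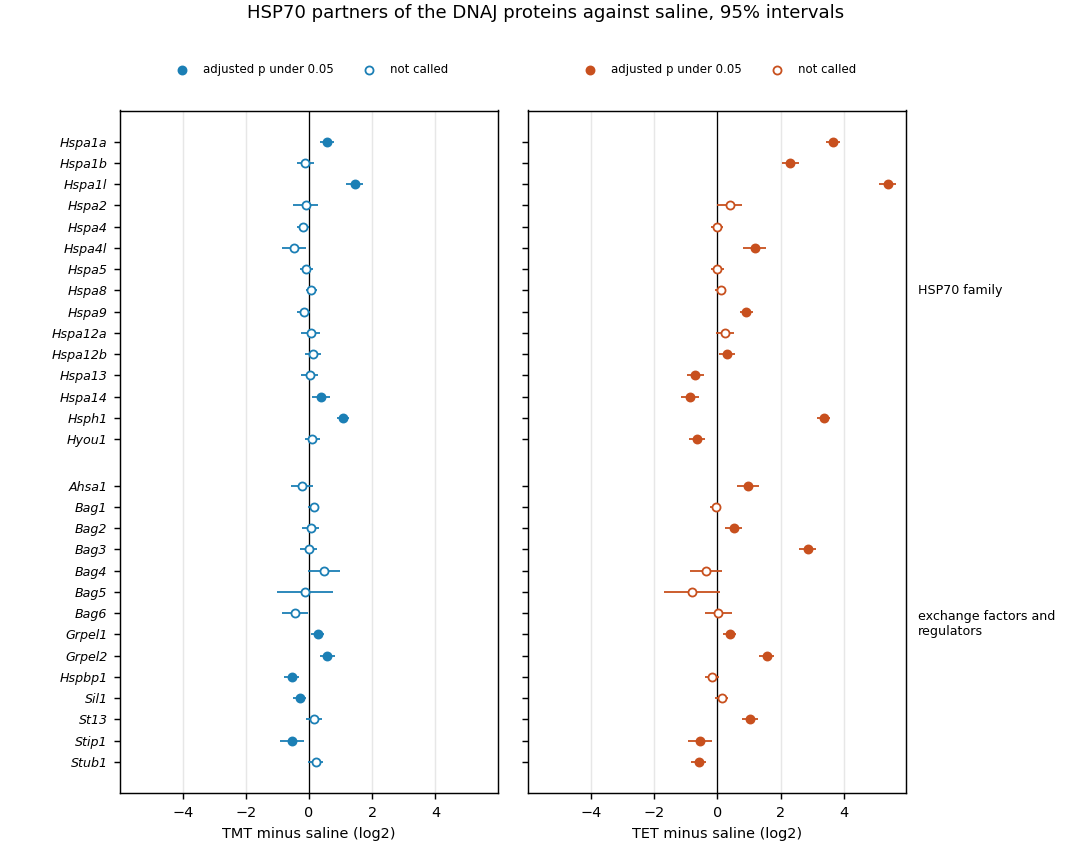
Points are log2 differences from saline of 15 HSP70 genes and 14 exchange factors and regulators under TMT (left) and TET (right), with 95% intervals and filled points for an adjusted p under 0.05. Hspa1a, Hspa1b, Hspa1l, Hsph1 and Bag3 lie at 2.31 or more under TET, beyond any of the 44 members, of which Dnajb9 was the highest at 2.01.

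Of 18 ER stress sensors and factors 6 rose and 2 fell under TMT, and 4 rose and 12 fell under TET, with medians of 0.29 and −0.36. All 18 were bright. Of bright genes 24.1% rose and 22.1% fell under TMT, and 23.6% rose and 41.3% fell under TET, with medians of 0.03 and −0.19. The genes named next were picked by smallest adjusted p, and most of the 12 that fell under TET are not among them. Ddit3, encoding CHOP, rose 4.95-fold and 7.99-fold, and Eif2ak3, encoding PERK, rose 2.63-fold and 8.82-fold. Ern1, the sensor IRE1, rose 2.34-fold and 1.65-fold, and Atf4 rose 1.39-fold and 2.06-fold. Creld2 rose 1.82-fold under TMT and fell 1.58-fold under TET, and Sel1l fell 1.33-fold and 1.55-fold.

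In the list of mitochondrial import and folding 0 of 11 rose and 1 fell under TMT, and 4 rose and 5 fell under TET, with medians of −0.09 and 0.30. The chaperonin genes Hspd1 and Hspe1 rose 3.41-fold and 3.08-fold under TET, and the channel subunits Timm17a and Timm17b fell 1.54-fold and 1.85-fold. Trap1 fell by 0.35 under TMT (adjusted p = 0.049), a call lost without any 1 of the saline or TMT arrays or TET replicate 2 (adjusted p up to 0.14). Of the 3 measured J proteins with other symbols, Hscb rose 2.02-fold under TET and Gak fell by 0.55 (adjusted p = 0.041), with a second Gak probe set at 0.21. The Gak call was lost without saline replicate 1, 2 or 3 or TET replicate 1 or 2 (adjusted p up to 0.13). Of 3 heat shock transcription factors, Hsf2 and Hsf4 rose under TET by 0.39 and 0.36 (adjusted p = 0.023 and 0.027), both dim. The call of Hsf2 was lost without saline or TET replicate 2 or 3, and that of Hsf4 without saline replicate 1 or 3 or TET replicate 3 (adjusted p up to 0.086 and 0.079).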

How the data were processed

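Total RNA of bone marrow derived macrophages was amplified, labelled with biotin and read on Affymetrix mouse genome expression arrays, per the labels' protocols. The deposited values are on a log2 scale, inferred from their range, and were processed by the authors with RMA and affy, per the submitters' processing notes. Joint normalization of the 9 arrays is not given in the sources used here, nor are tool versions.

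The values were used as deposited. Of 45037 probe sets, 34945 name 1 gene, 932 several and 9160 none in the platform annotation, and the last 2 kinds were left out. Each of 18193 genes was read at its brightest probe set. limma 3.58.1 in R 4.3.3 fitted 1 mean per group to all 9 arrays (6 residual and 3.99 prior degrees of freedom), and p-values were adjusted by Benjamini-Hochberg within each comparison. All probe sets were also tested together, for agreement between those of a gene. Members at or above the median brightness of genes (6.82) are called bright. Promoter letters were searched in the 250 bases before and 50 after each start in RefSeq's table.

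Members named with values are those called with at least a 1.5-fold change, the 3 brightest of each class in saline and 8 further names of the rule; for partner lists, the called genes with the 4 smallest adjusted p in each comparison. Per-array values are given for members changed at least 2-fold and for Dnajb1. Compartments were assigned by hand. A few further members and partners (Hspa5, Hspa8, Hspa9, the arrays of Dnajb1 and members with disagreeing probe sets) were chosen after their values were seen. The members and lists were chosen with earlier results of these data known. Alternatives were leaving out each array, other scalings, bright genes alone, averaging probe sets, dropping those with an _s_at or _x_at suffix (which can bind related transcripts), array weights, trended robust moderation, the 6 arrays of a comparison alone, a replicate block and a 1.5-fold minimum. Testing all probe sets and using the second brightest were added after seeing the data.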

Additional observations from a re-analysis of the deposited data

How the results depend on the processing

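The counts of called members stayed within 1.5 times their main value, with these exceptions. Requiring a 1.5-fold change left 11 of 20 calls for TMT, 16 of 29 for TET and 13 of 29 for TET against TMT. At the second brightest probe set, which 28 members have, 8 were called for TMT against 14 of the same 28 at the brightest. For TET and for TET against TMT 16 were called there in each, within that limit. Only 11 of the 19 and 11 of the 18 calls at the brightest were kept, however. Leaving out 1 array gave 15 to 22 calls for TMT, 23 to 31 for TET and 26 to 30 for TET against TMT. Cyclic loess kept 19 of the 29 TET calls. Apart from the fold requirement and the tests on all or on second probe sets, 15 of 20, 14 of 29 and 18 of 29 calls held in all settings. The replicate block gave 19, 27 and 27 calls. After group means were subtracted, the 9 same-numbered pairs of arrays correlated from −0.15 to 0.31, with 3 above 0.1. With so few arrays these values do not settle whether the replicate numbers pair the arrays. The median of all genes in TET against saline was 0.09, and 0.01 after centring each array.

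Some directions turned. Averaged over probe sets, Dnajb14 was −0.64 for TET against saline, and for TET against TMT Dnajb1 was 0.36, Dnajc11 −0.019, Dnajc6 0.22 and Ern1 0.11. Without probe sets that may bind related transcripts, Dnajc2 was −0.88 for TMT and 0.13 for TET against TMT, and Dnajb5 was 0.32 for TET. Dnajc4 was 0.048 for TET after cyclic loess. At the second brightest probe set, TET against saline gave −1.55 for Dnajb14, 0.32 for Dnajb5, −0.46 for Dnajc13, 0.15 for Dnajc27, 0.21 for Gak and −0.0016 for St13. There TET against TMT gave 0.77 for Dnajb1, −0.46 for Dnajc11, −0.19 for Dnaja1, −0.042 for Dnajc13, 0.062 for Dnajc28, 0.66 for Ern1, 0.22 for Gak and −0.28 for St13. The cause of these turns was not tested. No value used here marks the array background, so folds of dim probe sets may understate a change.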
